A study of Rattus norvegicus with 6 samples.

Results

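The genes described here encode proteins of the extracellular matrix: collagens, laminins, nidogens, the SPARC proteins, fibulins, fibrillins, fibronectin, tenascins and matrilins. They were chosen by their symbols on the array, which the rule took by family name for all but fibronectin and the tenascins, of which it named Fn1, Tnc and Tnr, so that the measured tenascin gene Tnn is counted with other matrix glycoproteins. The rule uses no measured value, although it was written with earlier results of these data known. The choice took 46 of the 13949 genes with a name of their own on the array (0.33%), of which 25 were collagens. The cells were primary oligodendrocyte progenitor cells (OPCs) of the rat, which divide and give rise to myelin-forming cells, and their RNA was measured on 6 Affymetrix arrays. OPCs came from rat pups 1 to 2 days old and recovered for 2 days in DMEM with N2, B27, NT3 and PDGF. The 3 control samples were left unstimulated and the 3 fibrinogen samples received fibrinogen, a clotting protein of blood, for 12 h. The rat strain and the dose of fibrinogen are not given in the sources used here, and nothing in the labels ties the replicates to separate cultures, so the spread behind the p-values is that of these samples and may be technical.

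The matrix around cells is built in layers. Collagens are triple helices that form fibrils, meshes or, in a few cases, membrane receptors, and laminins, nidogens and type IV collagen form basement membranes. In the central nervous system fibrillar collagen is scarce outside vessels and meninges, and the matrix between cells is rich in hyaluronan, proteoglycans, tenascins and soluble matricellular proteins. These last, among them SPARC and SPARC-like 1 (hevin), do not form the scaffold but alter how cells hold to it, and both are secreted by astrocytes, where they act on synapse formation.

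Each probe set had 1 log2 level on each array, so that a log2 change of 1 is a doubling. A level is relative and was not compared between genes as an amount. Median levels over all named genes lay between 6.85 and 6.89 on the 6 arrays, and fibrinogen 2 had the widest spread about its group mean (SD 0.146, against at most 0.0939 for a control). Background was read from the 956 receptor genes of smell and pheromones, whose 95th percentile was 5.51, and 39 of the 46 matrix genes had a mean level above it. All 8 measured OPC markers lay above that percentile, as did 8 of 9 astrocyte, 7 of 10 neuron, 4 of 14 pericyte and fibroblast, 4 of 9 endothelial and 5 of 11 microglia markers. Among pericyte and fibroblast markers Prrx1, Rgs5, Twist1 and Foxd1 lay above it and Pdgfrb and Dcn below, and among microglia markers Cd68, Cd14, P2ry12, C1qb and Cx3cr1 lay above it and Ptprc and Itgam below.

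Fibrinogen raised the genes of both measured SPARC proteins, Sparc and Sparcl1, and no other of the 46 members passed the test in either direction. Thus 2 of 46 members rose and 0 fell (limma, Benjamini-Hochberg adjusted p under 0.05 over all 13949 genes), or 4.35% of members, where 3.1% of all genes changed (1.81% higher and 1.29% lower). With the unadjusted p under 0.05 as the criterion, 7 members were higher and 4 lower, or 15.2% and 8.7% of members. Of all genes 15.6% met that criterion (8.12% higher and 7.46% lower). Members with groups that did not overlap numbered 10 (21.7%), of which 8 were higher and 2 lower (17.4% and 4.35% of members). Of all genes 21.3% had such groups (10.7% higher and 10.6% lower). The median log2 change was 0.0067 over the members and -0.0033 over all genes, with 24 members positive, 21 negative and 1 at 0. The count of members that passed the adjusted test is therefore near the background, and the centre of the list lay at 0. By the looser criteria more members were higher than lower, a lean that was not tested.

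**Figure D1:**
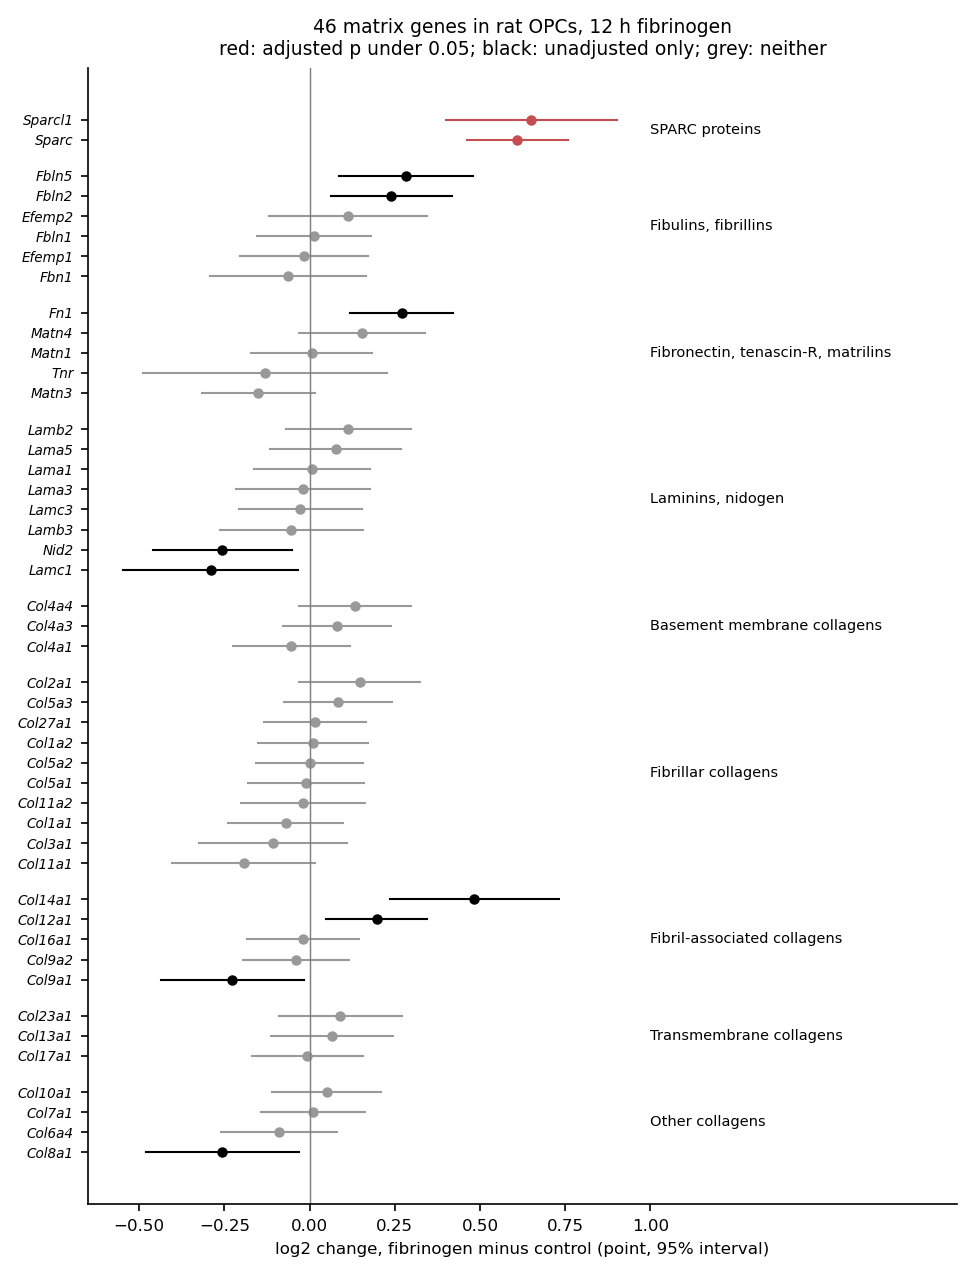
Log2 change (fibrinogen minus control) of each of the 46 matrix genes, grouped by role, with its 95% interval from limma, not adjusted for the number of genes. Sparcl1 (0.65) and Sparc (0.61), in red, passed the adjusted test, and the other 44 did not.

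Sparc encodes a collagen-binding glycoprotein that loosens cells from their matrix. Control arrays read 8.79, 8.77 and 8.72 (log2 level), and fibrinogen arrays 9.39, 9.34 and 9.38. Every fibrinogen array lay above every control, and the gap between groups was many times the spread within either. The mean went from 8.76 ± 0.04 to 9.37 ± 0.03 (SD, n = 3 each), a log2 change of 0.61 ± 0.07 (SE) or 1.53-fold (adjusted p = 0.00248, limma). In fits that left out each array in turn Sparc passed in 6 of 6, with a log2 change of 0.59 to 0.63 and an adjusted p of at most 0.0190 (limma). In these bulk samples more cells that express a gene and more RNA of it per cell cannot be told apart.

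Sparcl1 encodes the related secreted protein hevin. Its log2 level was 10.54, 10.45 and 10.32 in controls and 10.95, 11.32 and 10.99 with fibrinogen. The groups did not overlap, and fibrinogen 2 was the highest array. From 10.44 ± 0.11 to 11.09 ± 0.20 (SD, n = 3 each), the log2 change was 0.65 ± 0.11 (SE), a 1.57-fold rise (adjusted p = 0.0181, limma). By size of change Sparcl1 ranked 128th and Sparc 165th among the 13949 genes. The call for Sparcl1 ended without control 1, 2 or 3, with adjusted p-values of 0.0502, 0.0729 and 0.0893 and log2 changes of 0.70, 0.66 and 0.59 (limma).

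Markers of astrocytes, which are known to make both proteins, moved in part with these genes. Of 9 measured markers 2 rose (Gfap and Slc1a2) and 0 fell, where 1.81% of all genes rose and 1.29% fell. The mean log2 level of the 9 was 7.64 to 7.73 on control and 7.97 to 8.07 on fibrinogen arrays. The mean of the 8 measured OPC markers was 10.39 to 10.40 on control and 10.01 to 10.18 on fibrinogen arrays. Of these OPC markers 4 were lower and 0 higher (limma), where 1.29% of all genes were lower. The part of either in the rise of Sparc and Sparcl1 was not tested. By unadjusted p under 0.05, 6 of the 9 astrocyte markers were higher and 0 lower, each of the 6 with groups that did not overlap. Among all genes 8.12% were higher by that p-value, and 10.7% were higher with groups that did not overlap. Of the 9 log2 changes 8 were positive. Gjb6, Aqp4 and Gja1 had log2 changes of 0.08, 0.01 and -0.04, with overlapping groups. Among 9 endothelial and 11 microglia markers 0 rose and 0 fell (limma), and their part was not tested. By unadjusted p under 0.05, 1 endothelial marker (Ramp2) was higher and 0 were lower, and 0 microglia markers met that criterion. Neuron markers had a mean log2 level of 6.94 on fibrinogen 2, where Sparcl1 was highest, and of 6.71 to 6.77 on the other arrays. They did not move as one. Syt1 (8.58), Nefm, Nefl, Rbfox3 and Snap25 had their highest level on fibrinogen 2, and Tubb3 (9.78), Stmn2 (8.16) and Gad1 (4.77) their lowest. Among the 10 measured neuron markers 0 rose and 1 fell, Gad2, with a log2 change of -0.58 (adjusted p = 0.0130, limma). The part of neuron markers was not tested.

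As Sparc and Sparcl1 both rose, the 250 bases before their start sites are shown, from RefSeq (GRCr8), each read 5′ to 3′ along the gene. Capitals mark GGAGG, the core of the GGA boxes for which the Sparc promoter is known, and CAGAC, the core of a site that Smad proteins bind, on either strand. The Sparc window is chr10:40038817-40039066 on the minus strand, and the Sparcl1 window is chr14:5937234-5937483 on the plus strand.
Sparc: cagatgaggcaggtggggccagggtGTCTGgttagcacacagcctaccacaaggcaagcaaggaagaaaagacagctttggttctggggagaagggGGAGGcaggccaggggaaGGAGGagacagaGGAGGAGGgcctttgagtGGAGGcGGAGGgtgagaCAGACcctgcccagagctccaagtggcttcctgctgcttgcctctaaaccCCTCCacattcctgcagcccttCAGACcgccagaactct
Sparcl1: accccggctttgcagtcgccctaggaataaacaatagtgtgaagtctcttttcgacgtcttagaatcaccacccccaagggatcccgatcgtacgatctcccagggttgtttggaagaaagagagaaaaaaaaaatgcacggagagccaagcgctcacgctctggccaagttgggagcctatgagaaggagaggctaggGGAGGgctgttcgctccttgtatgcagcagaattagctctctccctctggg
The Sparc window held GGAGG 7 times, counting overlapping matches, and CAGAC 3 times, where the Sparcl1 window held 1 and 0. Promoters were at hand for 35 of the 46 members, of which 33 held GGAGG (94.3%) and 18 held CAGAC (51.4%). Among 27457 promoters of the same length the shares were 65.1% and 42.8%. Other letters were searched on both strands and had no match in either window. These were TATAAA, the TATA box (13.1% of all promoters and 11.4% of member promoters), and the CCAAT box (34.3% and 31.4%). GGGCGG, an SP1 box, was found in 32.4% and 54.3%, so GGAGG was not alone in being more frequent among members. GGCGCC, a site of BMP Smads, was found in 9.24% and 14.3%, and the AP-1 site TGANTCA in 6.36% and 5.71%. All letters, GGAGG and CAGAC included, were chosen after these sequences had been seen. A match is a run of letters and no evidence of binding.

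Fibulins are short elastic-fibre and basement membrane glycoproteins, and fibrillins form the microfibrils on which elastin is laid. None of the 6 measured members passed in limma, while unadjusted p-values under 0.05 were found for 2 higher and 0 lower genes. Such a p-value was found for 15.6% of all genes. Fbln5, which tethers elastic fibres to integrins, had log2 levels of 6.39, 6.24 and 6.24 in controls and 6.70, 6.45 and 6.57 with fibrinogen, a difference of 0.28 ± 0.09 (SE; adjusted p = 0.145, limma). Fbln2, which binds fibronectin and nidogens, had 5.77, 5.68 and 5.91 against 6.05, 6.03 and 6.0, a difference of 0.24 ± 0.08 (adjusted p = 0.169, limma). Neither gene had overlapping groups, although the closest Fbln5 arrays were 0.06 apart. The remaining members, Efemp2, Fbln1, Efemp1 and Fbn1, had differences from -0.06 to 0.11, all with overlapping groups.

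Fn1 encodes fibronectin, a fibril-forming glycoprotein of plasma and tissue that binds integrins, collagen and fibrin. Its log2 level was 6.39, 6.32 and 6.32 in controls and 6.58, 6.63 and 6.63 with fibrinogen. The groups did not overlap, and both were tight. The difference of 0.27 ± 0.07 (SE), or 1.21-fold, did not pass (adjusted p = 0.0732, limma), although it did when dim genes were left out, at an adjusted p of 0.0386 with genes above the receptor percentile, and with array weights (0.0394, limma). None of the 5 measured members of the group of tenascin, fibronectin and matrilins passed in limma, and 1 of them, Fn1, had an unadjusted p under 0.05. An unadjusted p under 0.05 was found for 15.6% of all genes.

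Tnr encodes tenascin-R, a matrix protein of perineuronal nets and nodes that cells of the oligodendrocyte lineage make. It varied most among the members named here, with log2 levels of 7.75, 8.27 and 8.13 in controls and 7.63, 8.09 and 8.04 with fibrinogen. Both groups spanned nearly the same range, each with its lowest value on replicate 1. The difference was -0.13 ± 0.16 (SE), with a 95% interval of -0.49 to 0.23 (adjusted p = 0.771, limma). With the replicate number as a block the SE was 0.08, and Tnr did not pass (adjusted p = 0.499, limma). Of the matrilins, adaptor proteins best known from cartilage, Matn4 had a difference of 0.15 ± 0.08 and Matn3 of -0.15 ± 0.07, and neither passed (adjusted p = 0.422 and 0.381, limma). Matn1 had a difference of 0.0067.

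**Figure D2:**
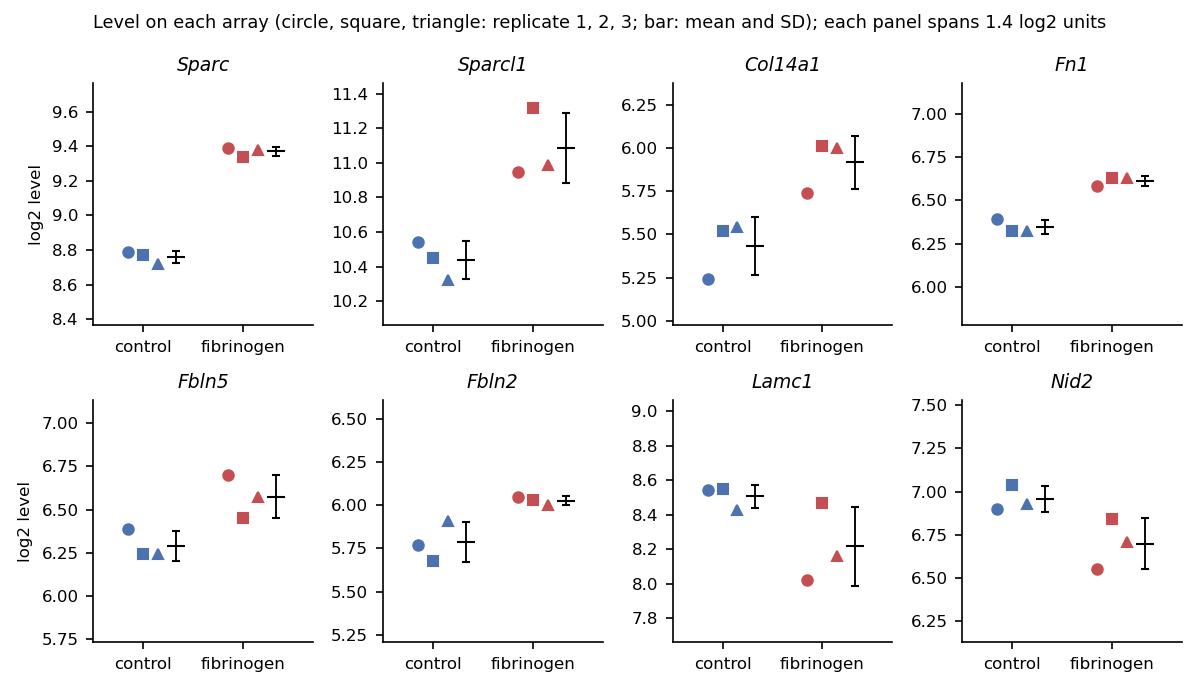
Log2 level of 8 matrix genes on each control (blue) and fibrinogen (red) array, with the mean and SD of each group beside the points and all panels on the same span. Sparc and Sparcl1 separate widest, while on fibrinogen 2 Lamc1 (8.47) lay within the range of its controls.

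Laminins are cross-shaped trimers of an alpha, a beta and a gamma chain that nucleate basement membranes, and nidogens link them to type IV collagen. None of the 8 measured genes of this group passed in limma, and those with an unadjusted p under 0.05 were 2, both lower. That p-value criterion was met by 15.6% of all genes. Lamc1, the gamma chain of most laminins, had log2 levels of 8.54, 8.55 and 8.43 in controls and 8.02, 8.47 and 8.16 with fibrinogen. Fibrinogen 2 lay among the controls and the other two fibrinogen arrays below them. The difference was -0.29 ± 0.11 (SE; adjusted p = 0.259, limma) with all arrays and -0.42 without fibrinogen 2, where it passed (adjusted p = 0.0392, limma).

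Nid2, for nidogen-2, had 6.90, 7.04 and 6.93 in controls and 6.55, 6.84 and 6.71 with fibrinogen. Groups did not overlap, and the difference of -0.26 ± 0.09 (SE) did not pass (adjusted p = 0.203, limma). RefSeq's table of GRCr8 lists 14 further genes and pseudogenes named as copies of Nid2, so this probe set may read more than 1 of them and its value is uncertain. The alpha chain genes Lama1, Lama3 and Lama5, the beta chain genes Lamb2 and Lamb3, and Lamc3 had differences between -0.05 and 0.11, with overlapping groups in each. A brighter probe set shared by Lamc3 and Aif1l was left out. Col4a1, a chain of the collagen mesh that laminins join, had log2 levels of 7.36, 7.34 and 7.42 in controls and 7.40, 7.21 and 7.35 with fibrinogen, a difference of -0.05 ± 0.08 (SE) that became 0.0017 without fibrinogen 2. Col4a3 and Col4a4, chains of the type IV collagen of kidney and lung, had differences of 0.08 and 0.13 that did not pass, the latter with groups that did not overlap. Of these 3 type IV genes, 0 were called at an unadjusted p under 0.05, where 15.6% of all genes were.

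The 10 fibrillar collagen genes, whose products make the banded fibres of connective tissue, had log2 changes from -0.19 to 0.15 with a median of -0.005. None passed in limma, 0 did so at an unadjusted p under 0.05, and all 10 had overlapping groups. Over all genes 15.6% met that unadjusted criterion, and 21.3% had groups that did not overlap. Col1a1 and Col1a2, the chains of type I collagen, had differences of -0.07 ± 0.07 and 0.01 ± 0.07 (SE), and Col3a1 of -0.11 ± 0.10. The ends of the range were collagens best known from cartilage. Col11a1, which nucleates thin fibrils, had log2 levels of 8.97, 9.15 and 9.06 in controls and 8.92, 8.70 and 8.98 with fibrinogen. Col2a1, its partner there, had 6.15, 6.37 and 6.27 against 6.37, 6.44 and 6.42. Neither difference passed (adjusted p = 0.368 and 0.425, limma).

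Fibril-associated collagens sit on the surface of fibrils and space them, and this group held the collagen with the largest difference. None of 5 passed in limma, whereas by unadjusted p under 0.05, met by 15.6% of all genes, there were 2 higher and 1 lower. Col14a1, which limits the width of fibrils, had log2 levels of 5.24, 5.52 and 5.54 in controls and 5.74, 6.01 and 6.0 with fibrinogen. On each side replicate 1 was the lowest, and the groups did not overlap. The difference of 0.48 ± 0.11 (SE), or 1.4-fold, fell just short of the threshold (adjusted p = 0.0552, limma). It passed in 5 alternative fits described in the closing section. In 2 of these, the filters on dim genes, Col14a1 was kept only through its fibrinogen arrays, so they lend the rise no support. Its control level of 5.43 ± 0.17 (SD, n = 3) lay below the receptor percentile of 5.51, where a log2 change is imprecise.

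Col12a1, a close relative of Col14a1, had 4.93, 4.98 and 4.94 in controls and 5.15, 5.18 and 5.11 with fibrinogen. These groups did not overlap, yet all 6 values were below the receptor percentile, and the difference of 0.20 ± 0.07 (SE) did not pass (adjusted p = 0.180, limma). Col9a1, a chain of the collagen that coats cartilage fibrils, had 6.73, 6.59 and 6.60 against 6.33, 6.32 and 6.59. Its difference was -0.23 ± 0.09 (adjusted p = 0.279, limma), and fibrinogen 3 matched the lowest control. Its partner chain Col9a2 had a difference of -0.04, and Col16a1 one of -0.02.

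The remaining collagens span the membrane or form short-chain networks, anchoring fibrils and beaded filaments. None of 3 transmembrane and 4 other collagens passed in limma. At an unadjusted p under 0.05, met by 15.6% of all genes, there were 0 higher and 1 lower. That gene was Col8a1, a short-chain collagen of vessel walls and basement membranes, with log2 levels of 5.0, 5.21 and 5.34 in controls and 4.83, 5.01 and 4.94 with fibrinogen. The groups overlapped by 1 array, all values lay below the receptor percentile, and the difference was -0.26 ± 0.10 (SE; adjusted p = 0.253, limma). Col23a1, Col13a1 and Col17a1, all of which cross the membrane, had differences of 0.09, 0.07 and -0.0067. Col10a1, Col7a1 and Col6a4 had 0.05, 0.01 and -0.09, and the 3 probe sets of Col6a4 were not merged.

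Across all 25 collagens 0 passed in limma, and the median log2 change was 0. An unadjusted p under 0.05 was found for 4 (2 higher, 2 lower), where 15.6% of all genes had one. For 24 of them the 95% interval of the change lay within 0.5 of 0 on the log2 scale (1.41-fold), the exception being Col14a1. Of all 44 members that did not pass, 42 had an interval within that limit, Lamc1 being the other exception, and 26 had a difference under 0.1 in size. These intervals are per gene and were not adjusted for the number of genes. Markers of pericytes and fibroblasts, the main makers of fibrillar collagen, had a mean log2 level of 5.42 to 5.52 on control and 5.48 to 5.53 on fibrinogen arrays over 14 measured genes, of which 0 passed (limma; 1 higher and 1 lower by unadjusted p under 0.05).

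**Figure D3:**
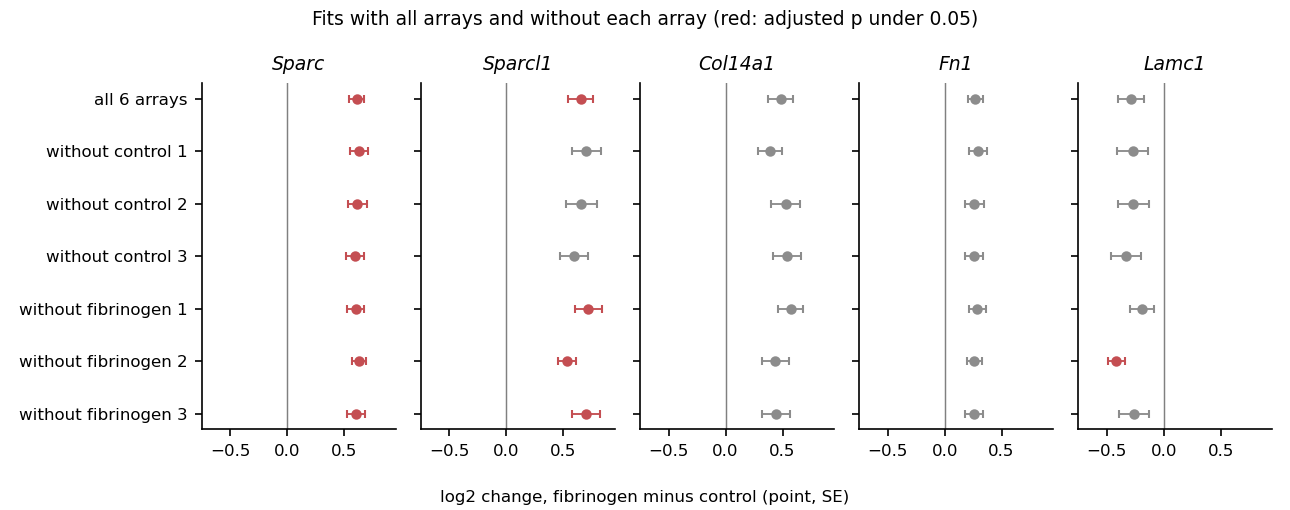
Log2 change and SE of 5 matrix genes in the fit of all 6 arrays and in the fits that leave out 1 array, red where the adjusted p was under 0.05. Sparc passed in each fit, Sparcl1 only while all controls were present, and Lamc1 only without fibrinogen 2.

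Other matrix glycoproteins, which the rule by symbol did not take, had 0 genes that rose and 1 that fell among 22 measured on a list of 33 (limma). Of all genes 3.1% passed that test. By unadjusted p under 0.05, 3 were higher and 1 lower, where 15.6% of all genes met that criterion. Groups did not overlap for 6 (2 higher and 4 lower), where 21.3% of all genes had such groups, and the median log2 change was 0.03. The gene that fell was Smoc1, a secreted calcium-binding relative of SPARC that modulates BMP signaling and is made by OPCs. Its log2 level was 10.71, 10.75 and 10.69 in controls and 10.35, 10.01 and 10.36 with fibrinogen, so a member of the wider SPARC family went the opposite way to Sparc and Sparcl1. The log2 change was -0.48 ± 0.10 (SE; adjusted p = 0.0440, limma), and the call was lost in every fit without 1 array except that without fibrinogen 2, with adjusted p-values up to 0.166 (limma). Without fibrinogen 2 the microfibril genes Mfap2 and Mfap4, singled out after their values were seen, also passed upward. With all arrays their log2 changes were 0.51 and 0.57 (adjusted p = 0.202 and 0.118, limma), and on fibrinogen 2 they read 8.61 and 6.69, close to controls.

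Collagen assembly genes encode the chaperones, hydroxylases and proteases that fold, modify and trim procollagen and the oxidases that crosslink it. Of 26 measured genes on a list of 30, 1 rose and 0 fell, where 3.1% of all genes changed. An unadjusted p under 0.05 was found for 7 (6 higher, 1 lower), where 15.6% of all genes had one. The list had a median log2 change of 0.045. Fkbp10, a prolyl isomerase of the endoplasmic reticulum that aids collagen folding, had log2 levels of 7.28, 7.09 and 7.21 in controls and 7.75, 7.69 and 7.59 with fibrinogen. No array overlapped, and the log2 change was 0.48 ± 0.08 (SE; adjusted p = 0.0164, limma). That call ended without control 2, control 3 or fibrinogen 1 (adjusted p = 0.0830, 0.0732 and 0.0613, limma), and without control 1, fibrinogen 2 or fibrinogen 3 it held.

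Receptors by which cells hold the matrix included the largest changes of these lists. Of 21 measured genes on a list of 28, 3 rose and 0 fell, where 3.1% of all genes changed. The median log2 change was 0.02. Cd44, the receptor for hyaluronan, went from 6.41, 6.20 and 6.28 to 7.35, 7.48 and 7.41, a log2 change of 1.12 ± 0.08 (SE; adjusted p = 0.000449, limma). Itga6, an alpha chain of laminin-binding integrins, went from 6.12, 6.08 and 6.07 to 6.89, 6.93 and 7.02, a change of 0.86 ± 0.07 (adjusted p = 0.000744, limma). In both genes the groups stood far apart, and both passed in all 6 fits without 1 array.

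Itgb5, a beta chain that pairs with the alpha-v chain to bind vitronectin, rose by 0.42 ± 0.09 (SE), with levels of 6.40, 6.23 and 6.29 against 6.58, 6.87 and 6.72. Its adjusted p of 0.0490 was at the threshold, and it passed in 1 of 6 fits without 1 array, where the adjusted p reached 0.196 (limma), nor did it pass after median centring (adjusted p = 0.0563, limma). Itgb1, the chain shared by most laminin and collagen receptors, had a difference of -0.0033 (adjusted p = 0.992, limma). The rise of Itga6 stood beside genes of its ligands that did not pass: the 7 laminin chain genes measured had differences from -0.29 to 0.11.

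**Figure D4:**
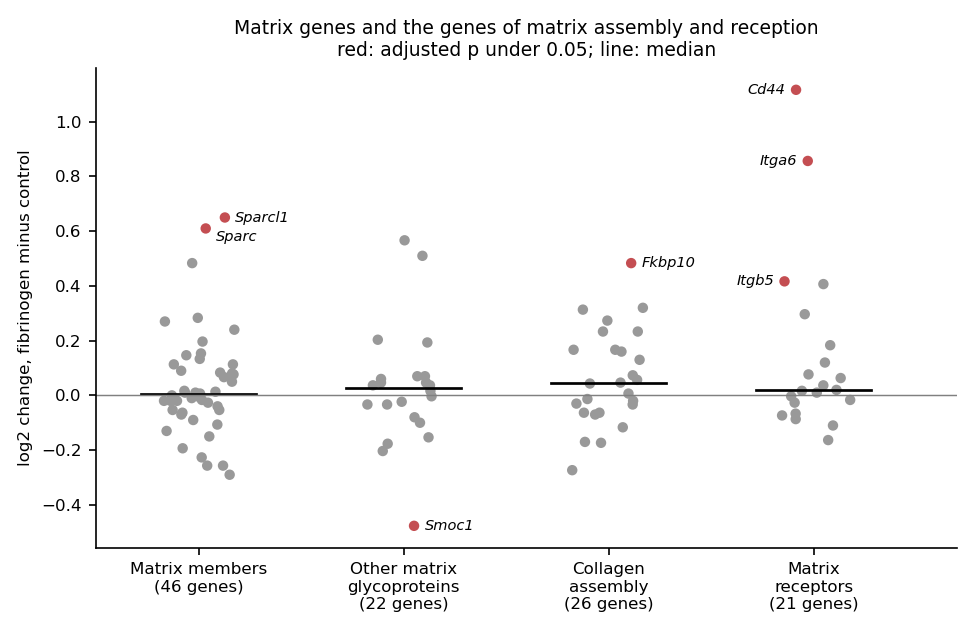
Log2 change of the 46 matrix genes and of 3 lists of related genes, each point a gene, red where the adjusted p was under 0.05, with the median of each list as a line. The medians lie between 0.0067 and 0.045, and the genes that passed stand away from them.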

How the data were processed

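Each probe set has 1 deposited value on each array. These were read as log2 levels that the authors normalized with RMA, a tool named with limma, but with no version or role, in the submitters' processing notes. The log2 scale was inferred from the values, and the genome build of the array is not given in the sources used here. RMA sets arrays to a common distribution and can compress differences of dim genes. Of 25106 probe sets with values, 14700 had 1 gene symbol in the platform's annotation. The probe set with the highest mean was used per gene, which gave 13949 genes. All 46 members matched RefSeq's table of GRCr8 by Entrez ID, and 0 symbols changed. The 32 further symbols of these families in that table include Tnc, Thbs1, Lama2, Lamb1, Nid1 and Col4a2. The platform's annotation gave no probe set under these symbols, so they could not be analysed here.

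Groups and replicate numbers came from the sample titles. The test was limma 3.58.1 (two-sided lmFit and eBayes in R 4.3.3, no covariates) on fibrinogen minus control, with Benjamini-Hochberg adjustment over all genes and a threshold of 0.05. With 3 arrays a group the smallest exact permutation p is 0.1, and no such test was made. The procedure was tested on simulated data. The members, lists and tests were chosen with earlier results of these data known. Named genes were all members with an unadjusted p under 0.05, up to 2 per group with the largest differences where fewer had one, some fixed matrix genes, and up to 5 genes that passed per related list; others are named for completeness. The fixed genes with values were Col4a1, Lamc1, Fn1, Tnr, Sparc and Sparcl1. The promoter letters searched were chosen from general knowledge after these sequences had been seen. Alternatives were 2 filters on dim genes, median centring, the mean of probe sets, a trend and robust prior, array weights, the replicate number as a block, and fits without each array.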

Additional observations from a re-analysis of the deposited data

How the results depend on the processing

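Sparc passed under every alternative that was run, and Sparcl1 under all but the 3 fits without a control. The count of matrix genes that changed was 4 without genes under the 30th percentile or under the receptor percentile and 5 with array weights, and without 1 array it ranged from 1 to 3. The number of all genes that changed moved too, from 432 to 596 and 595 with the filters, 659 with array weights and 151 to 436 without 1 array. Col14a1 accounted for part of this, with adjusted p-values of 0.0351, 0.0355, 0.0422, 0.0428 and 0.0218 with those 2 filters, a trend and robust prior, array weights and the replicate block (limma). The filters use the mean of all 6 arrays, which Col14a1 clears only through its fibrinogen arrays, so its passing there is no support. Collagen assembly genes numbered 2 with either filter, 3 with array weights and 0 to 2 without 1 array. Matrix receptor genes numbered 5 with array weights and 2 to 3 without 1 array, and other matrix glycoproteins 3 with array weights and 0 to 3 without 1 array. The median log2 change of the members ranged from -0.0092 to 0.036 without 1 array. Differences changed sign for Col4a1 (-0.093 to 0.0017 in fits without 1 array, the latter without fibrinogen 2) and Tnr (-0.28 to 0.015, the latter without fibrinogen 1), neither of which passed in any fit. The cause of these shifts was not tested.

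With the replicate number as a block, 3 matrix genes, 1 collagen assembly gene, 2 receptor genes and 0 other glycoproteins passed; Smoc1 had an adjusted p of 0.0652 and Itgb5 of 0.0951 (limma). Deviations of same-numbered samples correlated at only 0.028, 0.022 and 0.011 over all genes, although each sample correlated best with its own number. The main fit did not pair the samples by number, and whether they are paired was not settled. The number of arrays limited every value, and 7 members lay below the receptor percentile, where signal is near background.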
